A study of Mus musculus with 8 samples.

Results

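The genes of the mouse proteasome were followed in whole kidney RNA of Tet1 knockout and wild-type mice with and without ischemia/reperfusion injury. Members were all protein-coding genes whose symbol starts with Psm, one letter from a to g and a digit, and 51 of the 55919 genes in the table met this rule. By role they were 7 genes of the core alpha ring, 4 structural and 3 constitutive catalytic genes of the core beta ring, 3 immunoproteasome catalytic genes, 2 tissue-restricted core genes, 6 ATPases and 11 non-ATPases of the regulatory particle, 3 chaperones of regulatory particle assembly, 4 chaperones of core assembly, 5 activators and 1 inhibitor. The other 2, Psmc3ip, a meiotic recombination factor, and Psme3ip1, a nuclear protein that binds the activator Psme3, carried the name pattern only and are not subunits. Of the 51 genes, 49 passed the filter of the test (at least 1 FPKM in at least 2 libraries). Psma8, an alpha subunit of the testis, was listed at 0 to 0.109 FPKM, and Psmb11, the catalytic subunit of the cortical thymus, at 0 in every library but KO-I/R 3D replicate 2, where it was listed at 0.0200 FPKM.

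The kidneys came from female mice of the strain C57BL/6 x 129S4/SvJae, either Tet1+/+ (WT) or Tet1-/- with the Tet1tm1.1Jae allele (KO). Kidneys were non-injured (WT-NI, KO-NI) or were taken 3 days after the left renal pedicle had been clamped for 45 min (WT-I/R 3D, KO-I/R 3D, called injured WT and injured KO hereafter). Each group had 2 libraries, and each of these was a pool of RNA of 3 mice, so the errors given are the spread between pools. For the sequenced mice the sources used here give no age and leave unsaid whether separate animals provided the non-injured kidneys. In RNA of a whole organ, fewer cells of a type and less RNA per cell cannot be told apart.

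The libraries held 13961281 to 18480858 reads. Tet1 itself had 70 to 96 reads in the NI libraries and 51 to 89 in the I/R libraries. It was listed at 0.323 and 0.378 FPKM in WT-NI, at 0.382 and 0.551 in the libraries labelled KO-NI, at 0.243 and 0.313 in injured WT and at 0.159 and 0.189 in the injured kidneys labelled KO. The value spans the whole gene and not the deleted part, so it does not settle the genotype label. KO-NI replicate 1 stood apart: the KO-NI pair differed over 2-fold in 1804 genes, where the pairs of the other groups did so in 723 to 838, and 10.9% of its reads were mitochondrial against 4.76% to 7.70% elsewhere. Over the 49 proteasome genes the median absolute log2 difference between the libraries of a group was 0.233 in KO-NI, 0.0829 in WT-NI, 0.0636 in injured WT and 0.146 in injured KO. Proximal tubule markers, the main tubule cells of the cortex, summed to 2366 to 2828 FPKM in the NI libraries and to 521 to 1266 FPKM in the I/R libraries.

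The proteasome is a barrel of alpha and beta rings that cuts ubiquitin-tagged proteins into peptides. The regulatory particle at its ends recognizes ubiquitin, removes it, and unfolds the substrate with a ring of ATPases. Cutting is done by Psmb6, Psmb7 and Psmb5. In immune cells, and in other cells exposed to interferon gamma, newly built barrels take up Psmb9, Psmb10 and Psmb8 in their place and become immunoproteasomes, whose peptides are well suited for display on MHC class I. Psme1 and Psme2 form an activator cap that is also induced by interferon gamma, Psme3 forms a nuclear cap that works without ubiquitin, and Psme4 encodes a single-chain cap known from DNA repair and sperm development. In the kidney, proximal tubule cells rely on the proteasome and lysosome to clear proteins, and infiltrating leukocytes bring immunoproteasomes.

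The promoters of Psmb8, Psmb9 and Psme1, which rose after injury in both genotypes, are shown with that of Psmb5, the constitutive partner of Psmb8. Sequences are from RefSeq, each from 250 bases before to 50 bases after an annotated start (GRCm38.p6), 5′ to 3′ on the gene's strand. The windows are chr17:34197945-34198244, plus strand, for Psmb8; chr17:34187281-34187580, minus strand, for Psmb9; chr14:55578244-55578543, plus strand, for Psme1; and chr14:54617946-54618245, minus strand, for Psmb5. Capitals mark the motif found by a search of both strands for 4 motifs, and each of these windows held only 1 of the 4. The windows of Psmb10 and Psme2, which also rose in both genotypes, held none of the 4 and are not shown.
Psmb8: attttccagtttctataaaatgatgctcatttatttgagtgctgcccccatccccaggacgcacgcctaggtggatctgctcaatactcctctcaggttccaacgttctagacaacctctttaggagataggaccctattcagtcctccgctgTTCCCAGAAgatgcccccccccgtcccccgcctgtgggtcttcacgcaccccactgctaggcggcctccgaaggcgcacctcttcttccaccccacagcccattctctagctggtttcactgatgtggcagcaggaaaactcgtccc
Psmb9: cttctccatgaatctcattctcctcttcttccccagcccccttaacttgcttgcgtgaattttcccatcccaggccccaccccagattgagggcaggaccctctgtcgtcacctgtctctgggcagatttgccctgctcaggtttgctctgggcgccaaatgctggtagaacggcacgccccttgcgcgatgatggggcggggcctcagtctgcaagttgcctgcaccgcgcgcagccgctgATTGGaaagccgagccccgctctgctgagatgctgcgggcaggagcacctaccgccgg
Psme1: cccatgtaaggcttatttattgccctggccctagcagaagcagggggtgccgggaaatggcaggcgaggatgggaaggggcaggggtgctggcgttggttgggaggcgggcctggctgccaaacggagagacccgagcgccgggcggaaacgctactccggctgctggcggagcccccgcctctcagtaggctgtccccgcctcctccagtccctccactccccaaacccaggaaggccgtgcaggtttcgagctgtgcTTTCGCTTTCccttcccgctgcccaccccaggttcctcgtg
Psmb5: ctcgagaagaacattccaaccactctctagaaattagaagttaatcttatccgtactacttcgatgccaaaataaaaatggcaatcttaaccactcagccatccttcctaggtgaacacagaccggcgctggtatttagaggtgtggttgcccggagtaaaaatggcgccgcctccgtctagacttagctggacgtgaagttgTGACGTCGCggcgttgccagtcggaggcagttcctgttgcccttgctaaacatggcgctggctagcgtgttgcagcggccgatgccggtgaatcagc
In the Psmb8 window the capitals are a GAS motif (TTCNNNGAA, bases 154 to 162), an element of interferon gamma-responsive genes. In the Psmb9 window they are a CCAAT box on the reverse strand (bases 243 to 247). In the Psme1 window they are an ISRE core (GAAA, any 2 bases, GAAA, on the reverse strand, bases 260 to 269), the element of interferon-stimulated genes. In the Psmb5 window they are an ARE core (TGACNNNGC, bases 204 to 212), the element bound by Nfe2l1 and Nfe2l2.

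The motifs were searched in all members as well. RefSeq windows were matched for 43 of the 51 genes (47 windows). An ISRE core was in 5 of the 47, those of Psmb3, Psmd4, Psmd9, Psme1 and Psmg4, against 3.44% of all 32851 promoter windows. A GAS motif was in 3 (Psmb8, Psmd2, Psmg1) against 8.3% of all, an ARE core in 6 (Psmb5, Psmb6, Psmc6, Psmd12, Psmd9, Psme4) against 12.4%, and CCAAT in 16 against 37.4%. A match is a run of letters, not a bound site.

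In the non-injured WT kidney each constitutive catalytic gene lay above its immunoproteasome replacement in both libraries. Mean levels per length were 112 ± 5.54 FPKM (SD, n = 2) for Psmb5, 56.0 ± 6.40 for Psmb6 and 18.4 ± 0.656 for Psmb7, against 13.2 ± 1.41 for Psmb10, 3.44 ± 0.814 for Psmb8 and 3.02 ± 0.273 for Psmb9. Psmb8 and Psmb9 were neighbours in this order and their libraries overlapped. The alpha ring genes spanned 3.16-fold in mean FPKM, from Psma3 at 19.7 to Psma6 at 62.1, although each ring holds 1 copy of each subunit. The regulatory ATPases spanned 3.72-fold, from Psmc2 at 16.4 to Psmc5 at 61.0 FPKM, and the non-ATPases 5.34-fold, from Psmd11 at 10.01 to Psmd3 at 53.5 FPKM. Assembly chaperones were at 5.46 to 12.3 FPKM for the regulatory particle and 2.05 to 21.0 FPKM for the core, ranges that overlap those of the subunits. The inhibitor Psmf1 was at 6.09 FPKM.

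Psmb8 (chr17:34197721-34201454, plus strand) and Psmb9 (chr17:34181987-34187764, minus strand) are neighbours in the MHC region, and Psmb10 is at chr8:105935735-105938444 (minus strand), all in GRCm38. After injury, in the main fit, the 3 immunoproteasome catalytic genes rose in both genotypes and the 3 constitutive ones did not pass the test in either. Psmb8, the replacement of Psmb5, was at 2.86 and 4.01 FPKM in WT-NI, 1.89 and 2.52 in KO-NI, 8.30 and 10.9 in injured WT and 9.18 and 12.6 in injured KO. All 4 injured libraries lay above all 4 non-injured ones. The log2 fold change was 1.46 (SE 0.26, adjusted p = 0.0129) in WT and 2.25 (SE 0.26, adjusted p = 0.00104) in KO, each calculated with limma on log2(FPKM + 0.1) in 1 model over 15650 genes. A gene is said to have risen or fallen where the Benjamini-Hochberg adjusted p was under 0.05 and the absolute log2 fold change over 0.5. Of the exonic bases of Psmb8, 14.7% overlap Gm20496 on the opposite strand, and whether the libraries keep strand is not stated in the sources used here.

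Psmb10, the replacement of Psmb7 and the most abundant of the immunoproteasome genes, was at 12.2 and 14.2 FPKM in WT-NI, 8.22 and 10.2 in KO-NI, 28.5 and 36.6 in injured WT and 32.8 and 44.0 in injured KO. Its log2 fold change was 1.29 (SE 0.21, adjusted p = 0.00985) in WT and 2.04 (SE 0.21, adjusted p = 0.000736) in KO, the smallest adjusted p of any member in that comparison. Psmb9, the replacement of Psmb6, was at 2.83 and 3.22 FPKM in WT-NI, 1.74 and 2.59 in KO-NI, 5.22 and 5.84 in injured WT and 5.95 and 7.52 in injured KO. Its log2 fold change was 0.85 (SE 0.22, adjusted p = 0.0387) in WT and 1.61 (SE 0.22, adjusted p = 0.00185) in KO. The injured libraries lay above the non-injured ones for both genes. Psmb9 shares 5.79% of its exonic bases with Tap1 on the opposite strand.

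None of the constitutive partners was called in the main fit. Psmb5 was at 108 and 116 FPKM in WT-NI, 106 and 124 in KO-NI, 120 and 123 in injured WT and 109 and 124 in injured KO, with log2 fold changes of 0.11 (SE 0.13, adjusted p = 0.597) in WT and 0.02 (SE 0.13, adjusted p = 0.912) in KO. The KO libraries overlapped. Of its transcript, 57.1% of 50-base windows also occur in copies elsewhere in the genome, so its level depends on how such reads were counted. Psmb6 was at 51.5 and 60.5 FPKM in WT-NI, 37.3 and 54.8 in KO-NI, 69.1 and 67.5 in injured WT and 57.2 and 69.7 in injured KO, above the NI libraries within each genotype. It had log2 fold changes of 0.29 (SE 0.21, adjusted p = 0.367) in WT and 0.48 (SE 0.21, adjusted p = 0.105) in KO. Psmb7 was at 17.9 and 18.9 FPKM in WT-NI, 18.2 and 20.7 in KO-NI, 16.1 and 18.3 in injured WT and 15.5 and 14.0 in injured KO, where WT overlapped and KO did not. It had -0.10 (SE 0.13, adjusted p = 0.638) in WT and -0.40 (SE 0.13, adjusted p = 0.0456) in KO, a size under the fold threshold that turned to 0.0023 with TPM, where each library is rescaled to the same sum. Psmb6 was called higher in KO with TPM, where 32.4% of all genes tested rose. It was also called without KO-NI replicate 2, where more genes rose over all genes tested than in the main fit. Over the alternatives the KO log2 fold change of Psmb6 ran from 0.20 to 0.88.

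**Figure D1:**
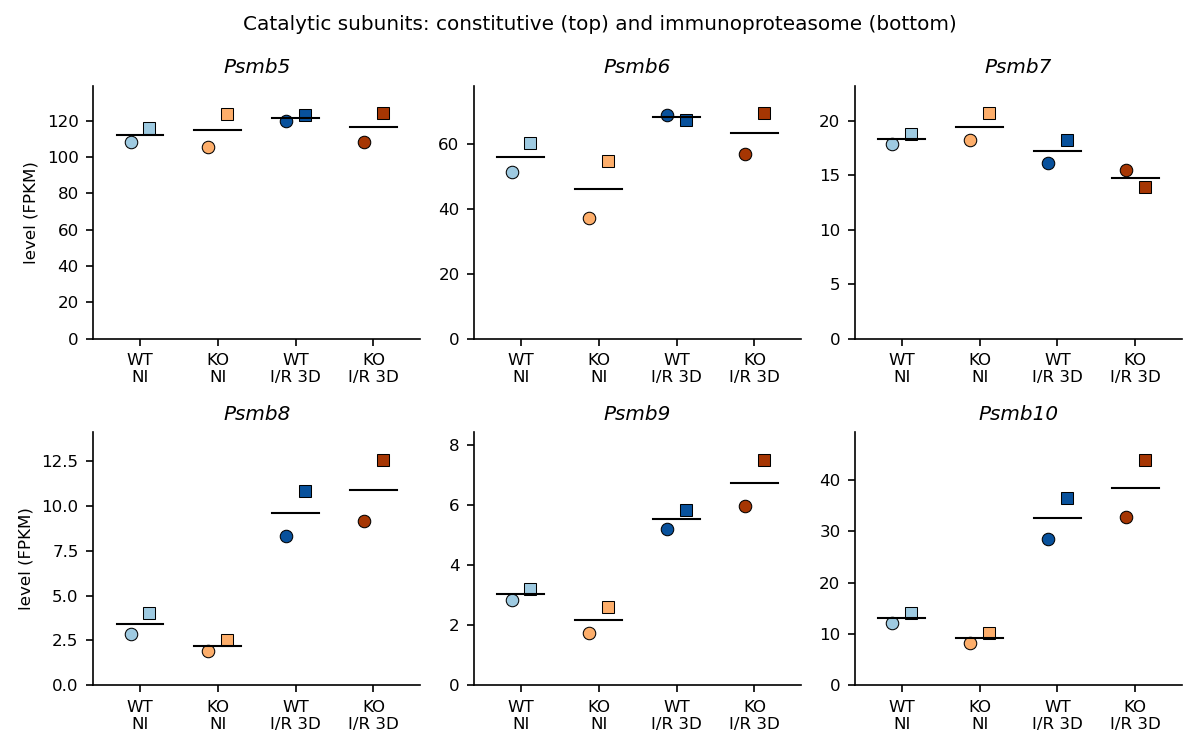
Level (FPKM, axes from 0) of the 3 constitutive catalytic genes in the upper row and of their immunoproteasome replacements below them, by group. Circles are replicate 1, squares replicate 2 and lines the mean of both. The injured libraries of Psmb8, Psmb9 and Psmb10 lie above every non-injured one, while the KO groups of Psmb5 overlap.

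Shares within a library do not depend on the scaling between libraries. Psmb8, Psmb9 and Psmb10 together made up 9.12% and 9.85% of the summed FPKM of the 6 catalytic genes in WT-NI and 6.85% and 7.14% in KO-NI. After injury they made up 17.0% and 20.4% in injured WT and 20.9% and 23.6% in injured KO. The KO libraries lay below the WT libraries before injury and above them after it, with 2 libraries in each group, which no exact test can take below a p of 0.05. For the pair of trypsin-like subunits the order reversed: Psmb10 over Psmb7 was 0.678 and 0.750 in WT-NI and 0.451 and 0.492 in KO-NI, but 1.77 and 2.00 in injured WT and 2.12 and 3.15 in injured KO. Psmb8 remained the minor partner of Psmb5, at 2.57% and 3.34% of their sum in WT-NI, 1.76% and 2.00% in KO-NI, 6.47% and 8.12% in injured WT, and 7.79% and 9.21% in injured KO. Psmb9 went from 4.47% to 5.22% of its sum with Psmb6 in the NI libraries to 7.02% to 9.74% in the I/R libraries.

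**Figure D2:**
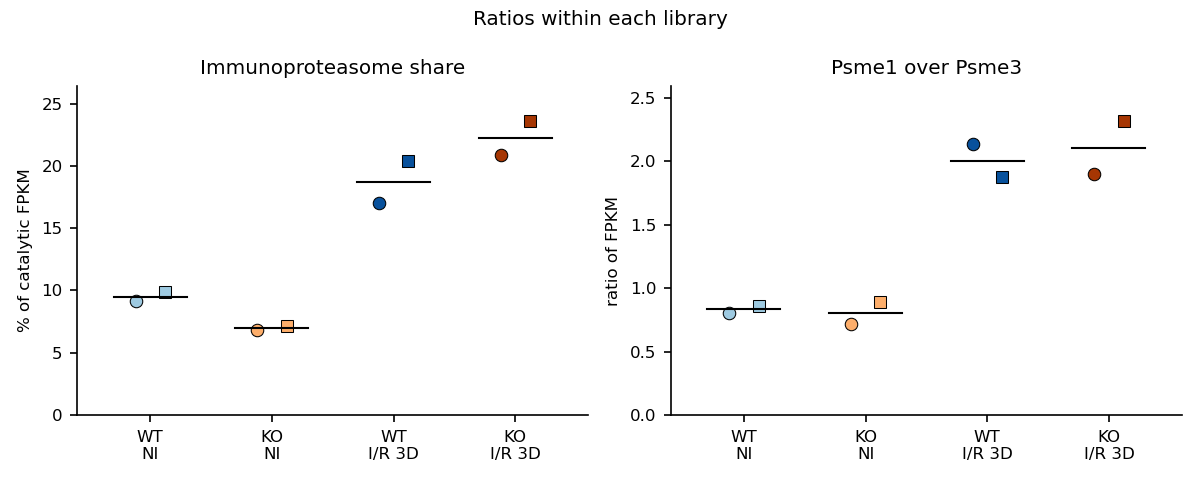
Left, summed FPKM of Psmb8, Psmb9 and Psmb10 as a percent of the summed FPKM of all 6 catalytic genes. Right, FPKM of Psme1 divided by FPKM of Psme3. Circles are replicate 1, squares replicate 2, lines the mean of both, and both axes start at 0. All injured libraries lie above all non-injured ones in both panels.

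Markers of leukocytes moved with these genes. For the counts that follow, 8.9% of all genes tested rose in WT and 17.9% in KO. All 13 macrophage and monocyte markers rose in WT and 12 of 13 in KO, and their summed level was 51.0 to 62.2 FPKM in the NI libraries, 402 and 448 in injured WT and 467 and 717 in injured KO. The lysozyme gene Lyz2 rose most, by 3.95 (SE 0.24, adjusted p = 0.00185) on the log2 scale in WT. Of the 9 tested of 13 T, NK and B lymphocyte markers, 5 rose in WT and 8 in KO, and the 13 summed to 4.12 to 6.31 FPKM before injury and to 19.2 to 25.9 FPKM after it. Of the 4 tested of 6 dendritic cell markers 1 rose in WT and 3 in KO, with sums of 4.99 to 6.21 and 8.49 to 12.6 FPKM. Of the 3 tested of 7 neutrophil markers 1 rose in WT and 3 in KO, with sums of 1.66 to 5.18 and 10.9 to 19.1 FPKM, while Mpo was listed at 0 in every library and Ly6g in every NI library. Psmb8 divided by the pan-leukocyte gene Ptprc was 2.31 to 4.72 in the NI libraries and 2.703 to 4.34 in the I/R libraries. These ranges overlapped, but such a ratio depends on the marker chosen. Psmb8 had log2 fold changes of 1.46 in WT and 2.25 in KO. The median of the tested markers was 2.34 and 3.26 for macrophages and monocytes, and 1.78 and 2.22 for lymphocytes. It was 1.71 and 2.765 for neutrophils, and 0.54 and 0.90 for dendritic cells. How far leukocytes account for the higher immunoproteasome genes was not tested.

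In WT, 7 of the 49 tested members rose after injury and none fell. Among all 15650 genes tested, 8.9% rose and 8.45% fell. Beside Psmb8, Psmb9 and Psmb10 the genes that rose were Psme1, Psme2, Psmg4 and Psmd10. The median log2 fold change of the 49 was 0.22, against -0.01 over all genes tested, and 39 of 49 were above 0. Both I/R libraries lay above both NI libraries for 35 members and below them for 7, where the shares over all genes were 34.5% and 37.6%. At an unadjusted p under 0.05, 14 members were higher and 3 lower, against 16.4% and 17.4% of all genes. The WT count rests on every WT library. Leaving out any 1 of them lowered it, and the number called over all genes tested dropped as well. The lone library left in a group is then assumed to vary like the others. In these fits the member median was 0.175 to 0.241, against -0.021 to -0.0135 over all genes. Over the 15 alternatives the WT log2 fold change of Psmb8 stayed between 1.22 and 1.70, with adjusted p from 0.00303 to 0.0988. That of Psmb9 stayed between 0.70 and 1.04, and 7 of the 15 no longer called it.

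In KO, 9 members rose and 3 fell, where 17.9% and 19.4% of all genes tested did. The genes that rose were Psmb8, Psmb10, Psme2, Psmb9, Psma5, Psme1, Psmd10, Psme2b and Psmd4, and those that fell were Psme4, Psmd3 and Psme3. The median of the 49 was 0.23 against -0.01 over all genes, and 36 were above 0. Libraries lay fully above for 27 members and fully below for 11, against 32.5% and 34.9% of all genes. These counts depended on the library left out. Both were higher without KO-NI replicate 2, and both were lower without KO-NI replicate 1, which stood apart, or without KO-I/R 3D replicate 2. The numbers called over all genes tested moved the same way in each of these fits. With 1 library left out the member median stayed between 0.196 and 0.308. Psmb8, Psmb9, Psmb10, Psme1, Psme2, Psma5 and Psmd10 were called in all 15 alternatives for this comparison.

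Taking all 4 I/R libraries against all 4 NI libraries, 23 of the 49 members lay fully above and 5 fully below, where 21.4% and 23.3% of all genes tested did. Reads of the 51 genes made up 0.296% to 0.319% of all reads in the NI libraries and 0.405% to 0.458% in the I/R libraries. The split of the KO calls depends on how libraries are scaled. The deposited FPKM had been scaled between libraries, and rescaling each library to the same sum (TPM) put the median of all genes at 0.17 in WT and 0.38 in KO in place of -0.01 in both. With TPM, 7 members rose and none fell in WT, where 11.6% of all genes rose and 4.58% fell. In KO 31 rose and none fell, where 32.4% of all genes rose and 10.1% fell, and the member median was 0.64. The 7 genes that rose in WT were the same 7 under both scalings.

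**Figure D3:**
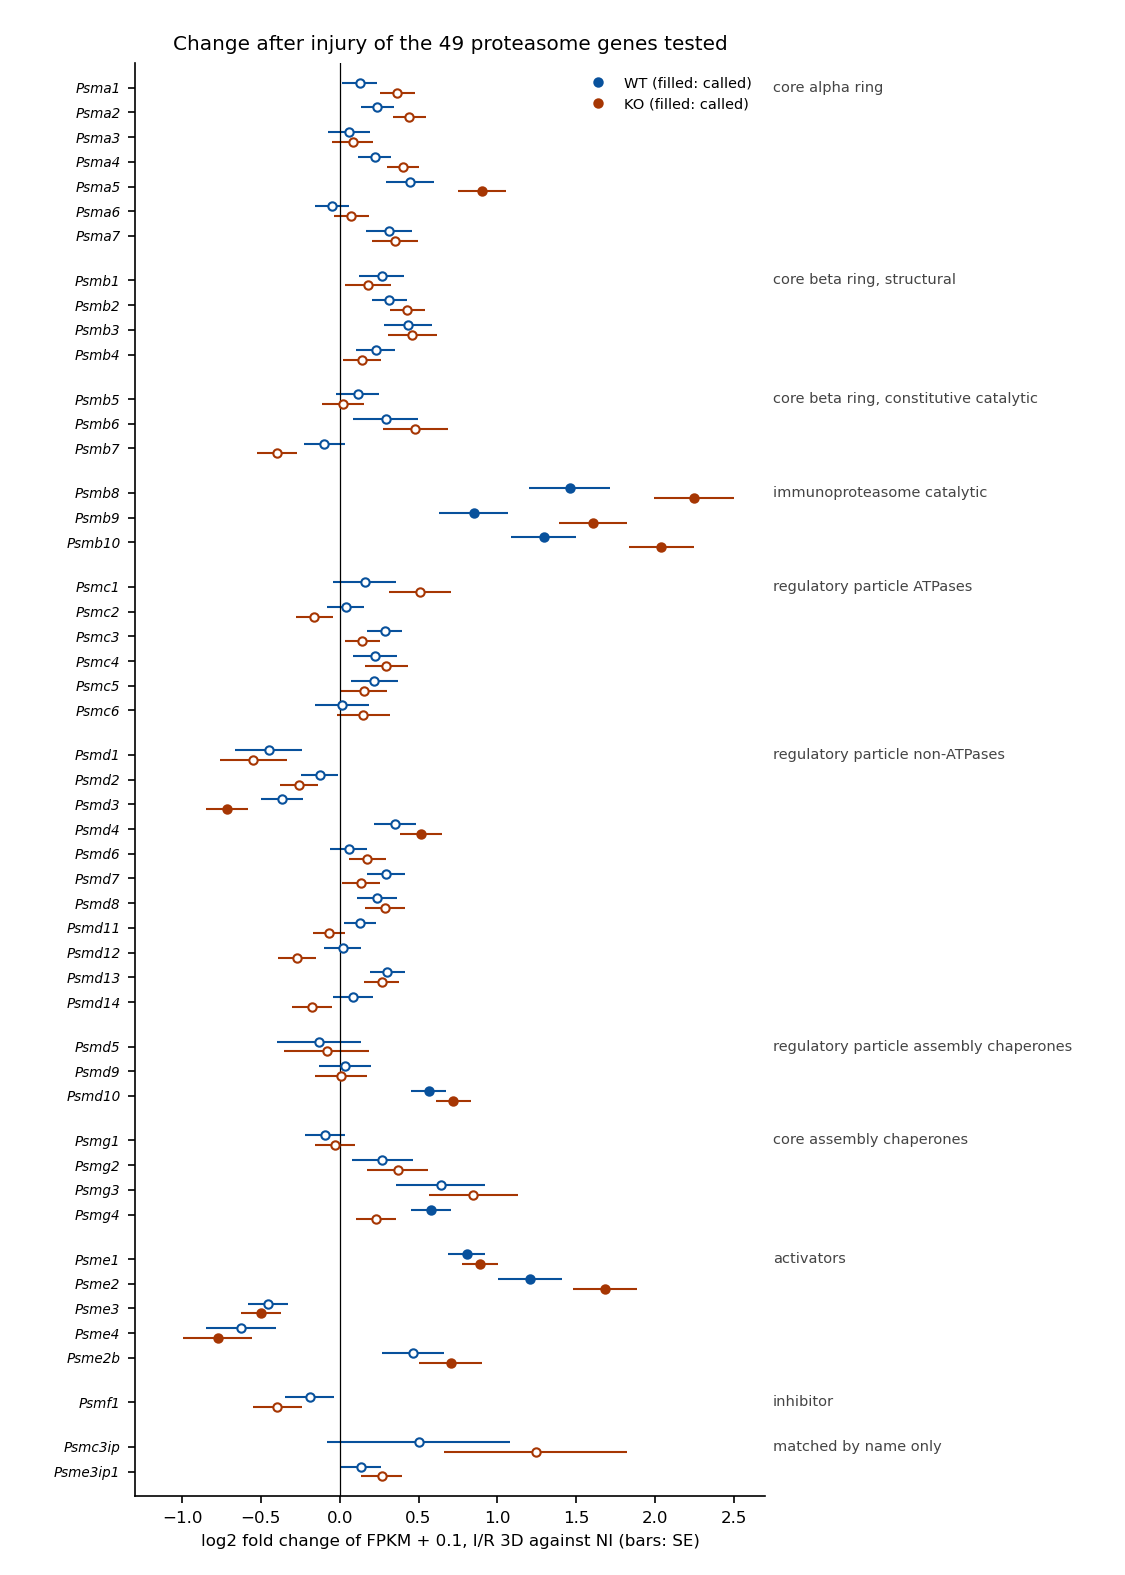
Log2 fold change after injury (log2 of FPKM + 0.1) of the 49 tested members in WT (blue) and KO (brown), grouped by role. Bars are standard errors from limma, filled points passed the adjusted p and fold thresholds, and 0 means no difference. In both genotypes Psmb8, Psmb10, Psme2 and Psmb9 lie farthest to the right and Psme4, Psme3, Psmd1 and Psmd3 farthest to the left.

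The activators split by kind. Psme1 (chr14:55578123-55581529, plus strand) and Psme2 (chr14:55587441-55591113, minus strand) are neighbours in GRCm38. Psme1, which with Psme2 builds the interferon-inducible cap, was at 27.0 and 29.5 FPKM in WT-NI, 27.1 and 29.1 in KO-NI, 49.4 in both injured WT pools and 49.3 and 55.0 in injured KO. The 4 injured libraries lay above the others without overlap. Its log2 fold change was 0.81 (SE 0.12, adjusted p = 0.00766) in WT, the smallest adjusted p of any member there, and 0.89 (SE 0.12, adjusted p = 0.00161) in KO. Psme2 was at 11.5 and 10.04 FPKM in WT-NI, 8.80 and 11.7 in KO-NI, 24.3 and 25.6 in injured WT and 28.0 and 38.6 in injured KO. It rose by 1.21 (SE 0.20, adjusted p = 0.0112) in WT and 1.69 (SE 0.20, adjusted p = 0.00120) in KO on the log2 scale. Psme2b, a separate locus on chromosome 11 with 69.3% of its 50-base windows shared with other genes, mainly Psme2, had a log2 fold change of 0.47 (SE 0.20, adjusted p = 0.150) in WT and rose by 0.70 (SE 0.20, adjusted p = 0.0286) in KO, a call lost without KO-NI replicate 1, without any 1 of the 4 I/R libraries and in 2 other alternatives. Reads of the pair cannot be fully told apart, and their sum was 29.1 to 45.3 FPKM in the NI libraries and 63.2 to 79.7 FPKM in the I/R libraries.

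Psme3 and Psme4 were lower in the injured libraries and were called in KO only. Psme3, the nuclear activator, was at 33.4 and 34.4 FPKM in WT-NI, 37.8 and 32.8 in KO-NI, 23.1 and 26.4 in injured WT and 26.0 and 23.8 in injured KO. All injured libraries lay below all non-injured ones. It fell by 0.50 (SE 0.13, adjusted p = 0.0207) on the log2 scale in KO, and its WT value was -0.45 (SE 0.13, adjusted p = 0.0525). The KO call was lost in 8 of 15 alternatives, among them TPM (log2 fold change -0.10) and the fits without KO-NI replicate 1, without either injured KO library and without either WT-NI library. Psme4 was at 22.7 and 19.2 FPKM in WT-NI, 30.6 and 20.2 in KO-NI, 13.6 and 13.3 in injured WT and 16.4 and 12.8 in injured KO. It fell by 0.78 (SE 0.22, adjusted p = 0.0298) in KO, a call lost without KO-NI replicate 1, without KO-I/R 3D replicate 2, without either injured WT library and in 3 other alternatives, and its WT value was -0.63 (SE 0.22, adjusted p = 0.0951). Psme1 over Psme3 went from 0.808 and 0.859 in WT-NI and 0.717 and 0.889 in KO-NI to 2.14 and 1.87 in injured WT and 1.90 and 2.32 in injured KO. The inhibitor Psmf1 had log2 fold changes of -0.19 (SE 0.15, adjusted p = 0.436) in WT and -0.40 (SE 0.15, adjusted p = 0.0802) in KO.

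**Figure D4:**
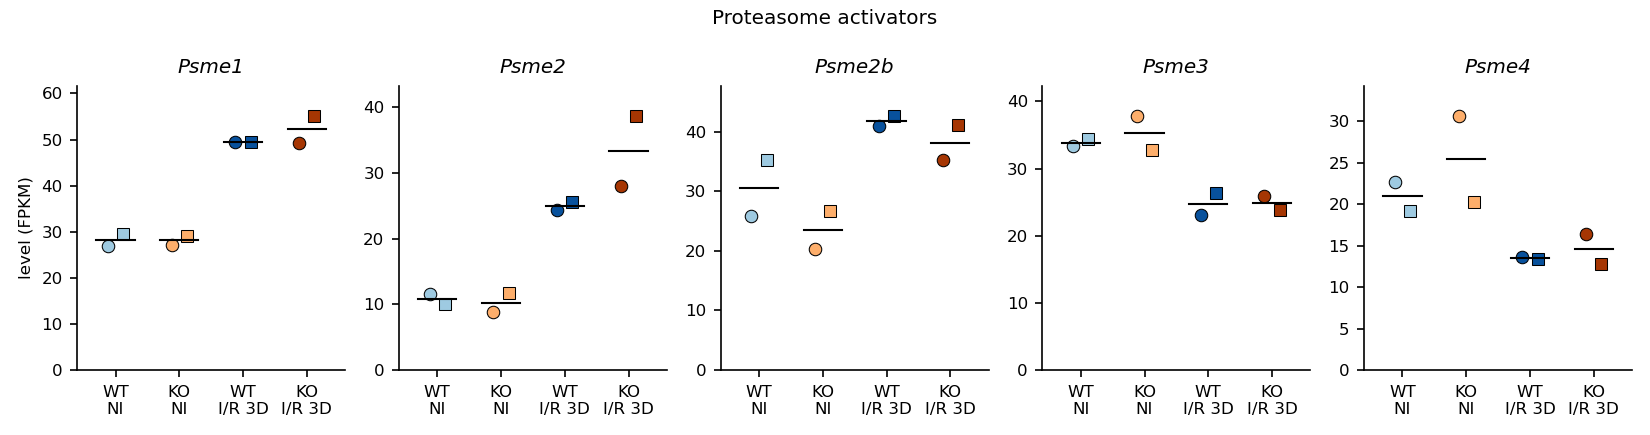
Level (FPKM, axes from 0) of the 5 activator genes by group. Circles are replicate 1, squares replicate 2 and lines the mean of both. Psme1 and Psme2 are higher in every injured library than in any non-injured one, Psme3 and Psme4 are lower, and Psme2b overlaps.

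Of the other 11 core genes only Psma5 was called, and in KO alone. Over all genes tested 8.9% rose in WT and 17.9% in KO, so calls were more frequent in KO throughout. Of the 7 alpha genes none passed in WT, where the log2 fold changes ran from -0.05 (Psma6) to 0.44 (Psma5) with a median of 0.22, and 1 passed in KO, where they ran from 0.07 (Psma6) to 0.90 (Psma5) with a median of 0.36. Psma5 was at 29.0 and 32.4 FPKM in WT-NI, 24.3 and 28.6 in KO-NI, 41.6 and 41.8 in injured WT and 44.0 and 55.2 in injured KO. It rose in KO by 0.90 (SE 0.15, adjusted p = 0.00417), and its WT value was 0.44 (SE 0.15, adjusted p = 0.0890). Of its windows 55.4% are shared with copies elsewhere, and its pseudogene Psma5-ps was itself listed at 2.48 to 6.05 FPKM. The 4 structural beta genes, Psmb1 to Psmb4, lay between 0.23 (Psmb4) and 0.43 (Psmb3) in WT and between 0.14 (Psmb4) and 0.46 (Psmb3) in KO, all uncalled. For Psmb2, named after its values were seen, the 4 injured libraries (52.6 to 56.6 FPKM) lay above the 4 others (39.3 to 44.6 FPKM), with log2 fold changes of 0.32 (SE 0.11, adjusted p = 0.0947) in WT and 0.43 (SE 0.11, adjusted p = 0.0213) in KO, the latter under the fold threshold.

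In the regulatory particle few members were called. None of the 6 ATPases, Psmc1 to Psmc6, passed in either genotype, with log2 fold changes from 0.01 (Psmc6) to 0.29 (Psmc3) in WT and from -0.16 (Psmc2) to 0.51 (Psmc1) in KO. Of the 11 non-ATPases none passed in WT, and 1 rose and 1 fell in KO (9.1% each). The shares over all genes tested were higher, at 8.9% that rose and 8.45% that fell in WT. In KO they were 17.9% and 19.4%. Psmd4, a ubiquitin receptor, was at 28.5 and 30.1 FPKM in WT-NI, 21.9 and 27.1 in KO-NI, 36.7 and 37.9 in injured WT and 33.5 and 36.3 in injured KO. It rose in KO by 0.52 (SE 0.13, adjusted p = 0.0212), just past the fold threshold, and not without KO-NI replicate 1 or either injured KO library, where its log2 fold change was as low as 0.36 over the alternatives. Psmd3, a subunit of the lid, was at 54.5 and 52.4 FPKM in WT-NI, 41.9 and 52.9 in KO-NI, 41.4 and 41.5 in injured WT and 28.6 and 28.7 in injured KO. Each group but KO-NI was tight, and the injured KO libraries were the lowest of the 8. It fell by 0.71 (SE 0.13, adjusted p = 0.00631) in KO, and its WT value was -0.37 (SE 0.13, adjusted p = 0.107). Under TPM the KO call was lost, as it was with only the KO libraries in the fit. Psmd1, the scaffold of the base, was the lowest of the role in WT at -0.45 (SE 0.21, adjusted p = 0.188) and was -0.55 (SE 0.21, adjusted p = 0.0790) in KO.

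Among the assembly chaperones, Psmd10 (gankyrin), which helps build the ATPase ring and is known as an oncoprotein in human liver, rose in both genotypes. It was at 12.5 and 12.1 FPKM in WT-NI, 14.1 and 12.8 in KO-NI, 17.6 and 18.9 in injured WT and 21.8 and 22.7 in injured KO. The I/R libraries lay above the NI libraries, and injured KO above injured WT. Its log2 fold change was 0.56 (SE 0.11, adjusted p = 0.0171) in WT and 0.72 (SE 0.11, adjusted p = 0.00286) in KO. The other chaperones of the regulatory particle did not pass, with Psmd5 at -0.13 and -0.08 and Psmd9 at 0.03 and 0.01 in WT and KO. Psmg4, one of 4 chaperones that assemble the alpha ring, was at 20.4 and 21.5 FPKM in WT-NI, 20.9 and 21.3 in KO-NI, 28.8 and 34.1 in injured WT and 23.5 and 26.2 in injured KO. It rose in WT by 0.58 (SE 0.13, adjusted p = 0.0245), and its KO value was 0.23 (SE 0.13, adjusted p = 0.188). Psmg3 had 0.64 (SE 0.28, adjusted p = 0.163) in WT and 0.85 (SE 0.28, adjusted p = 0.0502) in KO, from 41 to 222 reads per library. The WT calls of Psmd10 and Psmg4 were lost without any 1 of the 4 WT libraries. Psmg1 and Psmg2 had -0.10 and 0.27 in WT and -0.03 and 0.37 in KO, uncalled. Psmc3ip and Psme3ip1, members by name only, had 0.50 and 0.13 in WT and 1.24 and 0.27 in KO, also uncalled.

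**Figure D5:**
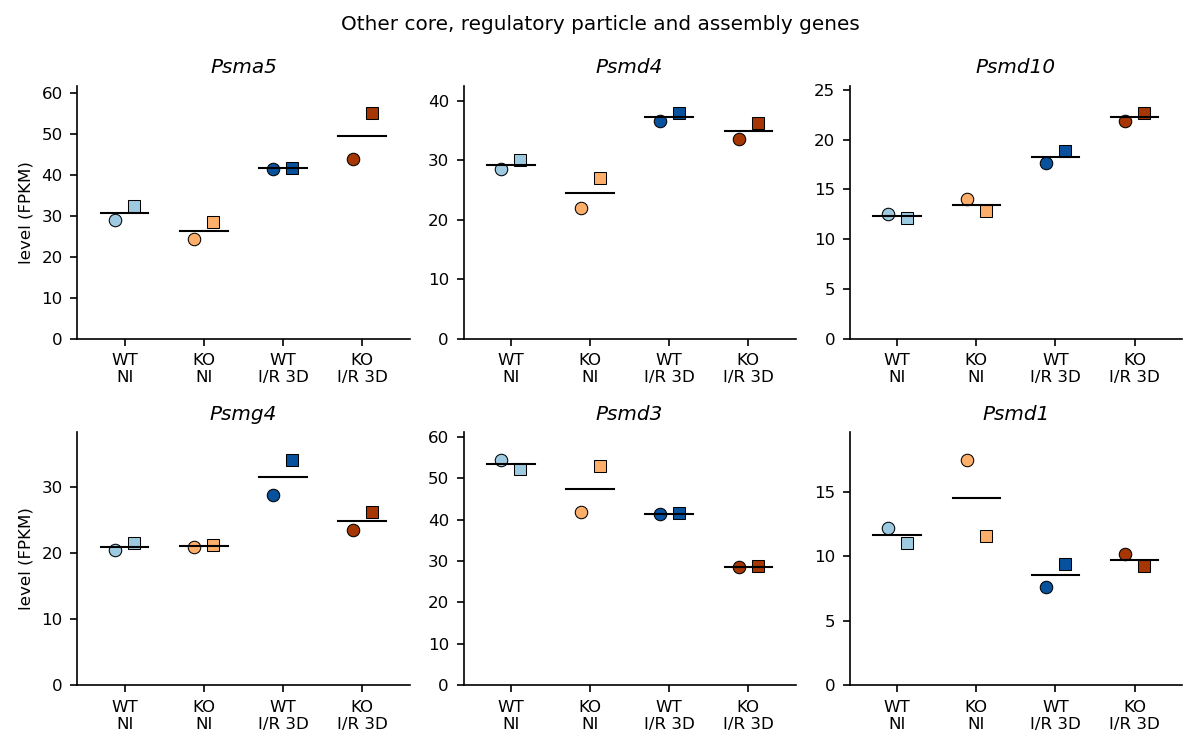
Level (FPKM, axes from 0) of Psma5 (alpha ring), Psmd4, Psmd3 and Psmd1 (regulatory particle), Psmd10 and Psmg4 (assembly chaperones) by group. Circles are replicate 1, squares replicate 2 and lines the mean of both. Psmd10 is higher in every injured library, and the injured KO libraries of Psmd3, at 28.6 and 28.7 FPKM, are the lowest of the 8.

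The comparison of injured KO with injured WT, which shares its libraries with both injury comparisons, called no member, and 0.0% of all genes tested were called in either direction. At an unadjusted p under 0.05, 2 members were higher (Psma1, Psmd10) and 2 lower (Psmd3, Psmg4), where 5.61% and 11.3% of all genes were. limma voom on recovered reads called none of the members and 82 higher and 305 lower genes in all. Psmd3 had the smallest adjusted p, with a log2 fold change of -0.53 (SE 0.13, adjusted p = 0.135). It was called lower when either KO-NI library was left out, although neither enters the difference. Genes at large were called lower in those fits as well. Psma1 was at 31.6 and 30.7 FPKM in injured WT and 42.0 and 38.8 in injured KO, a log2 fold change of 0.37 (SE 0.11, adjusted p = 0.176). For Psmb8 it was 0.18 with a 95% interval from -0.43 to 0.79 (adjusted p = 0.761), for Psmb9 0.27 from -0.24 to 0.79 (adjusted p = 0.568) and for Psmb10 0.23 from -0.26 to 0.72 (adjusted p = 0.613). Over the 49 members the median half-width of the interval was 0.32 on the log2 scale, so differences of that size are within the error.

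Between KO-NI and WT-NI no member passed the threshold, and again 0.0% of all genes tested were called in either direction. At an unadjusted p under 0.05, none was higher and 2 lower, Psmb8 and Psmb10, against 2.24% and 3.35% of all genes. The KO-NI libraries lay below the WT-NI libraries for all 3 immunoproteasome genes. Over the 49 members the pairs lay fully above for 7 and fully below for 7, against 17.7% and 17.2% of all genes tested. The log2 fold change was -0.61 (SE 0.26, adjusted p = 0.688) for Psmb8, -0.51 (SE 0.21, adjusted p = 0.688) for Psmb10 and -0.49 (SE 0.22, adjusted p = 0.688) for Psmb9. Members were called only without KO-NI replicate 2, so with only the library that stood apart. Genes at large were called in both directions in that fit as well. Over the alternatives the log2 fold change of Psmb9 ran from -0.76 to -0.21. The lymphocyte markers summed to 5.85 and 6.31 FPKM in WT-NI and to 4.19 and 4.12 in KO-NI, with none of the 9 tested called. The other leukocyte lists had no call either, with median log2 fold changes of -0.16 (macrophage and monocyte, 6 of 13 above 0), -0.02 (dendritic) and -0.52 (neutrophil). Their part in the difference was not tested.

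Whether the response to injury differed between the genotypes was tested as the interaction. No member was called, nor was any gene (0.0% in either direction). At an unadjusted p under 0.05, 2 members had a larger response in KO (Psmb9, Psmb10) and none a smaller one, against 3.6% and 6.42% of all genes. The difference of the log2 fold changes was 0.79 (SE 0.36, adjusted p = 0.539) for Psmb8, 0.76 (SE 0.31, adjusted p = 0.484) for Psmb9 and 0.75 (SE 0.29, adjusted p = 0.466) for Psmb10. For the constitutive partners Psmb5, Psmb6 and Psmb7 it was -0.09, 0.19 and -0.30. Over all 15 alternatives the log2 fold changes of Psmb8, Psmb9 and Psmb10 in KO stayed within 1.88 to 2.68, 1.29 to 2.04 and 1.83 to 2.45. The fit without the KO-NI library that stood apart was among these alternatives. These ranges are of the KO response and not of the interaction, so they do not show how far the interaction rests on that library.

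Genes that work with the proteasome were read from lists. Of 23 partners tested, among them ubiquitin shuttles, deubiquitinases and transcription factors, 1 rose and none fell in WT, and 2 rose and 6 fell in KO, with medians of -0.21 and -0.23. Among all genes tested 8.9% rose and 8.45% fell in WT, and 17.9% rose and 19.4% fell in KO. The median over all genes tested was -0.01 in both. Pomp, the chaperone that completes the core and is known to favour immunoproteasome assembly, rose from 11.9 and 13.8 FPKM in WT-NI to 18.7 and 18.3 in injured WT, a log2 fold change of 0.52 (SE 0.13, adjusted p = 0.0335), and in KO it rose by 0.56. In KO the shuttle receptors Ubqln2 (-0.66, SE 0.12, adjusted p = 0.00537) and Ubqln1 (-0.68, SE 0.13, adjusted p = 0.00707) and the ubiquitin ligase Ube3c (-0.96, SE 0.17, adjusted p = 0.00461) fell. Nfe2l1, the transcription factor that restores proteasome genes when proteasome activity drops, had -0.51 (SE 0.17, adjusted p = 0.0812) in WT and fell by 0.73 (SE 0.17, adjusted p = 0.0148) in KO. The unfoldase Vcp had -0.34 (SE 0.14, adjusted p = 0.129) in WT.

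Antigen processing genes and interferon regulators moved in the direction of the immunoproteasome genes. Of 15 tested, 5 rose in WT and 14 in KO and none fell, with medians of 0.59 and 1.22. Among all genes tested 8.9% rose in WT and 17.9% in KO, with a median of -0.01 in both. Irf1, a transcription factor that drives Psmb9 and Tap1, was at 4.15 and 4.24 FPKM in WT-NI, 3.17 and 3.70 in KO-NI, 9.62 and 11.2 in injured WT and 10.9 and 14.1 in injured KO. Its log2 fold change was 1.29 (SE 0.17, adjusted p = 0.00584) in WT and 1.82 (SE 0.17, adjusted p = 0.000603) in KO. The receptor genes Ifngr1 (0.94, SE 0.15, adjusted p = 0.0102) and Ifngr2 (1.18, SE 0.19, adjusted p = 0.00991) rose in WT, as did B2m, the light chain of MHC class I (0.87, SE 0.14, adjusted p = 0.0109). Tap1, the peptide transporter gene beside Psmb9, was named after its values were seen and had 0.65 (SE 0.21, adjusted p = 0.0754) in WT and rose by 1.45 in KO. Ifng itself was listed at 0 in every NI library and did not pass the filter.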

How the data were processed

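RNA of 8 libraries, 2 in each of 4 groups, was measured by poly-A RNA sequencing, each library from kidney RNA pooled from 3 mice. Per the submitters' processing notes reads were aligned with HISAT2 2.0.5 to GRCm38.p6 (mm10), and for the counting tool the sources used here give no name. The authors deposited FPKM already scaled between libraries, which keeps whole reads recoverable. Of the values checked, 100% came out whole within 0.001 of their read count, a bound that large counts meet in any case. Library depth was 13961281 to 18480858 reads, and its number of pools limits precision.

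Groups were taken from the sample labels. Log2(FPKM + 0.1) of 15650 genes (1 FPKM or more in 2 or more libraries) was fitted in 1 model of 4 group means with limma 3.58.1 (R 4.3.3, trended empirical Bayes, 4 residual and 2.89 prior degrees of freedom), two-sided, with Benjamini-Hochberg adjustment over all genes. A call required adjusted p below 0.05 with a log2 fold change beyond 0.5 in size. Scripts were tested on simulated data. Tables and plots used Python 3.11.15, pandas 2.3.3 and matplotlib 3.10.9. Members named were the catalytic, activator, Psmf1, Psmg, tissue-restricted and Psmc3ip genes, every called member, and the highest and lowest of each role in each comparison. From each other list, the called genes of smallest adjusted p (4 at most) and the uncalled ones of highest mean (2 at most) were named in a comparison. The members and the lists were chosen with earlier results of these data known. Alternatives were a pseudocount of 1, no filter, TPM, limma voom on recovered reads (at least 10 in at least 2 libraries), only the libraries compared, a replicate block, no fold threshold, and each library left out. Positions and shared 50-base windows were taken from GENCODE M21 annotation, promoters from RefSeq, both on GRCm38, since the positions in the table are of another assembly and were not used. Values of some list genes are not reported here.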

Additional observations from a re-analysis of the deposited data

Results flagged for a closer look

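Psmd14, the deubiquitinase of the regulatory particle lid, and Psmd11, another lid subunit, were singled out because both injured libraries lay on one side of both non-injured ones in WT and on the opposite side in KO. Such separation was common. Over all genes tested the injured libraries lay fully above in 34.5% and fully below in 37.6% in WT, and in 32.5% and 34.9% in KO. How many genes lay on opposite sides was not counted. For Psmd14 the difference of the log2 fold changes (KO minus WT) was -0.26, from 0.08 in WT and -0.18 in KO, with an adjusted p of 0.694 for the interaction in limma. For Psmd11 it was -0.20, from 0.13 in WT and -0.07 in KO, with an adjusted p of 0.714. Neither difference passed the threshold.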

How the results depend on the processing

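With 2 pools a group, differences within the intervals given were not detectable, and the lone library left after leaving 1 out is assumed to vary like the others. Leaving out 1 library moved the number of proteasome genes that rose to between 0 and 7 in WT and between 7 and 16 in KO, and the number that fell to between 0 and 1 in WT and between 1 and 5 in KO. It gave 0 to 1 lower genes in injured KO against injured WT, and 0 to 1 higher and 0 to 3 lower genes in KO-NI against WT-NI. With TPM 31 genes rose and 0 fell in KO. With only the libraries compared, 1 gene fell in WT (Psme4) and 0 in KO. As a percent of recovered reads in place of FPKM, the immunoproteasome share of the catalytic genes was 14.3% in WT-NI, 10.8% in KO-NI, 26.7% in injured WT and 31.5% in injured KO.

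Signs turned for uncalled values only, of which the largest as reported were -0.40 (Psmb7 after injury in KO) and 0.18 (Psmb8 in injured KO against injured WT). With TPM the log2 fold change of Psmb7 was 0.0846 after injury in WT, 0.0023 in KO and -0.007 in KO-NI against WT-NI, that of Psmb5 was 0.0698 in injured KO against injured WT and -0.0599 in KO-NI against WT-NI, and that of Psmb6 was 0.0197 in injured KO against injured WT. With 1 library left out, Psmb5 ran from -0.0914 to 0.1355 after injury in KO. In injured KO against injured WT, Psmb8 ran from -0.0497 to 0.4037, Psme1 from -0.0016 to 0.1548, Psmb5 from -0.1616 to 0.0331 and Psmb6 from -0.2566 to 0.0282. In KO-NI against WT-NI, Psmb7 ran from -0.0134 to 0.1728, Psmb5 from -0.0862 to 0.1407, Psme1 from -0.072 to 0.0594 and Psme2 from -0.2863 to 0.1249. The cause was not tested.

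The replicate numbers did not pair the samples: the deviations of same-numbered libraries correlated at 0.03 to 0.17. With the number as a replicate block, 7 genes rose and 1 (Psme4) fell in WT, and 10 rose and 3 fell in KO. The planned edgeR fits, with TMM and with median-of-ratios scaling, were not run, since the deposited values are FPKM, and limma voom on recovered reads was run in their place.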

Other observations

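Of 6 ubiquitin genes, none passed the test after injury in WT, and in KO 1 rose and 2 fell, against 17.9% and 19.4% of all genes tested. The activating enzyme gene Uba1 fell by 0.70 (SE 0.10, limma adjusted p = 0.00263). Rps27a, which encodes ubiquitin fused to a ribosomal protein, rose by 1.40 (SE 0.42, adjusted p = 0.0342) and was at 183.5 FPKM in KO-I/R 3D replicate 2 against 40.9 to 82.6 FPKM in the other libraries.

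Beside the leukocyte lists, all 6 cycling markers and all 5 fibroblast and pericyte markers rose in both genotypes, while of the 9 markers of proximal tubule 8 fell in both genotypes and 1 rose. Of 6 distal and collecting duct markers 3 fell in WT and 4 in KO, of 4 loop of Henle markers 0 and 3, of 4 podocyte markers 1 and 2, and of 7 endothelial markers 1 and 1. Of 4 male germ cell markers 1 was tested and not called in either. Among all genes tested 8.9% rose and 8.45% fell in WT, and 17.9% rose and 19.4% fell in KO. No gene of these lists was called between injured KO and injured WT kidneys, where 0.0% of all genes tested were called in either direction.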
